A study of Mus musculus with 13 samples.

Results

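The EGF family genes described here are the ligand genes *Areg*, *Hbegf* and *Tgfa* and the receptor genes *Egfr*, *Erbb2* and *Erbb3*. They were taken by gene symbol from the count tables of sorted mouse CD4 T cells, where all 6 were found among 24417 named genes. The study restored Foxp3, the lineage factor of regulatory T (Treg) cells, in mice that lack it, and RNA-seq was done on 13 libraries in 5 groups. Cells came from spleen and lymph nodes of C57BL/6 mice and were sorted by flow cytometry, Treg cells as Foxp3-expressing and Thy1.1-negative cells and Treg “wannabes” as Thy1.1-positive cells without Foxp3 protein.

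Control Treg cells (n = 3) came from healthy male Foxp3DTR-GFP/y Cd4creERT2 mice, which carry the diphtheria toxin receptor (DTR) fused to GFP in the *Foxp3* gene. Rescued Treg cells (n = 3) came from male Foxp3LSL/y Cd4creERT2 mice, whose *Foxp3* is blocked by a removable Thy1.1 cassette. “Wannabes” (n = 2) came from male Foxp3LSL/y Cd4wt mice, which have no Cre recombinase and remained diseased. The males of all 3 groups received 4-hydroxytamoxifen on postnatal day 14 and were analyzed on day 21. The tamoxifen-activated Cre is driven from *Cd4*, so that it can act in CD4 T cells at large. In a separate experiment, resting “wannabes” (n = 3) came from female Foxp3LSL/WT Cd4wt mice and activated “wannabes” (n = 2) from female Foxp3LSL/DTR Cd4wt mice, aged 9 to 11 weeks. Diphtheria toxin was given to both female groups, and it kills DTR-expressing Treg cells only in the latter. X inactivation makes these females mosaics, and the cells sorted are those that use the LSL allele.

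Libraries held between 25556783 and 36659638 counted reads. Summed CPM (counts per 1000000 reads of a library) of 7 T cell markers was between 4615 and 7029 in every library, and none of these markers was at 0. *Foxp3* had 28404 to 36480 normalized counts in rescued and 5466 to 8282 in control Treg cells, 2760 and 3280 in male “wannabes”, 1995 to 2224 in resting and 1570 and 1731 in activated “wannabes”, whose blocked gene is still transcribed. Normalized counts of *Thy1*, which includes the cassette's Thy1.1, were 6425 and 10741 in male “wannabes” against 1190 to 1527 in the male Treg libraries. Male libraries varied more among themselves (common biological coefficient of variation 0.51) than female ones (0.171). By the study's methods the female libraries came from 5 mice, 3 resting and 2 activated, and the male ones are biological replicates. Counts were normalized by TMM within each experiment, so that tests of levels were made only within an experiment, and values set side by side across experiments carry no test. Differences were tested by the quasi-likelihood F test of edgeR, adjusted after Benjamini and Hochberg for all genes tested, and called at an adjusted p under 0.05.

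EGF family ligands are made as membrane proteins and released by metalloproteases such as ADAM17. They bind receptor tyrosine kinases that act as pairs: EGFR binds amphiregulin (*Areg*), HB-EGF (*Hbegf*) and TGF-α (*Tgfa*), ERBB2 has no known ligand, and ERBB3 binds neuregulins and has little kinase activity of its own. In T cells the family is best known for amphiregulin, which Treg cells of injured tissues can secrete and which acts on epithelium. HB-EGF is also the receptor through which diphtheria toxin enters cells; the mouse protein binds the toxin poorly, and the simian form is the DTR used in mouse models.

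In the GENCODE annotation of GRCm38, *Areg* lies on chromosome 5 from 91139599 to 91148432 on the plus strand, near its relatives *Epgn*, *Ereg* and *Btc*. *Egfr* lies on chromosome 11 from 16752203 to 16918158 on the plus strand. The 250 bases before the RefSeq start of each (GRCm38.p6, plus strand, chr5:91139349-91139598 and chr11:16751953-16752202) are shown because, of the 6 genes, these were the ligand and the receptor with the largest fitted differences between groups among those tested. Capitals mark the cAMP response element (CRE), TGACGTCA, an element known from the amphiregulin promoter.

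Areg: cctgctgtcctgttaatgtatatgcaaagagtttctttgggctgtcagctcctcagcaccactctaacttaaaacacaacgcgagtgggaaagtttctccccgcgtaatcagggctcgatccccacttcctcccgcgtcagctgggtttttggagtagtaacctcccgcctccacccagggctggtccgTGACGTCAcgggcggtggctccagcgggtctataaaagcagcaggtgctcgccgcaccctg
Egfr: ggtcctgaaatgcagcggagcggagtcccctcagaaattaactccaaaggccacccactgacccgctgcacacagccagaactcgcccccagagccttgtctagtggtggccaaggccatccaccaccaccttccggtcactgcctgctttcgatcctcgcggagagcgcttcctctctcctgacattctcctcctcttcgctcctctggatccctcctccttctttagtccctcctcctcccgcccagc

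The *Areg* window held 1 CRE, with its first base at position -61 relative to the start site, and 1.55% of 32851 RefSeq promoter windows of this length held one. Neither window held the AP-1 letters TGANTCA (6.75% of windows) or the GATA letters AGATAA (9.99%), and *Egfr* held no CRE. Both strands were searched, and the CRE and AP-1 letters cannot match at the same place. Of the 6 genes, 4 had a promoter entry.

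Of the 3 ligands, *Areg* had the highest level per length in each group, and among the male libraries the rescued Treg libraries had most of it. Its normalized counts were 32.1, 47.3 and 70.0 in control Treg cells, 298, 446 and 205 in rescued Treg cells, and 19.7 and 110.1 in male “wannabes”. The 3 rescued libraries lay above all other male libraries, while the control range lay inside that of the “wannabes”. The group means were 49.8 ± 19.1 (SD, n = 3), 316 ± 121 (SD, n = 3) and 64.9 ± 63.9 (SD, n = 2).

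From control to rescued Treg cells the fitted difference of *Areg* was 6.33-fold (log2 fold change 2.66, standard error 0.66), but it did not pass the threshold in edgeR (adjusted p = 0.0647). DESeq2 called the same difference (log2 fold change 2.68, adjusted p = 0.00186). In edgeR it was called when male “wannabe” replicate 1 (adjusted p = 0.0149) or replicate 2 (adjusted p = 0.0175) was left out of the shared fit, and leaving out any other male library gave no call. In every fit without a male “wannabe”, a single library stands for that group and is assumed to vary like the libraries of the other groups. Against “wannabes”, the log2 fold change of rescued Treg cells was 2.29 (standard error 0.75, edgeR adjusted p = 0.0685; DESeq2 adjusted p = 0.0129). Without “wannabe” replicate 2, this value against the single library with the lowest *Areg* was 3.95 (edgeR adjusted p = 0.0167), and without “wannabe” replicate 1 it was 1.52 (edgeR adjusted p = 0.206). Control Treg cells and “wannabes” were not detectably different (log2 fold change -0.37, standard error 0.70, edgeR adjusted p = 0.761), and without “wannabe” replicate 2 the sign turned (1.28).

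In the females, *Areg* had 75.8, 129 and 33.2 normalized counts in resting and 156 and 224 in activated “wannabes”. Both activated libraries lay above all resting libraries, and the means were 190.0 ± 47.9 (SD, n = 2) and 79.4 ± 48.1 (SD, n = 3). The log2 fold change of 1.25 (standard error 0.51) was not called (edgeR adjusted p = 0.126), although it was without resting replicate 2, the highest resting library (1.80, edgeR adjusted p = 0.0421). Over the other 4 fits with a library left out it was 0.88 to 1.49, with edgeR adjusted p up to 0.441. The change from control to rescued Treg cells and that from resting to activated “wannabes” differed by 1.42 on the log2 scale (standard error 0.92, edgeR adjusted p = 0.566). Mast cells and basophils also make amphiregulin. Their 6 markers summed to 6.34 to 9.37 CPM in rescued Treg cells, 6.88 to 16.5 CPM in control Treg cells and 20.3 to 27.0 CPM in male “wannabes”, and in the females to 27.4 to 57.5 CPM in resting and 19.8 to 25.1 CPM in activated “wannabes”. In these sums *Gata2* was at 0 in all 13 libraries, and nearly all was *Kit*.

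Other marker lists also differed between these groups, some in the direction of *Areg* and some in the opposite direction. From control to rescued Treg cells, dendritic cell markers were higher (2.17 to 3.73 CPM in rescued against 0.893 to 1.92 CPM in control) and stroma and endothelium markers lower (151 to 202 against 256 to 307 CPM), without overlap. In activated against resting “wannabes”, the markers of macrophages and monocytes, dendritic cells, B cells and epithelium were higher without overlap, with the values given beside *Hbegf* and *Egfr* in the females. The part of other cells in the *Areg* values was not tested.

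**Figure D1:**
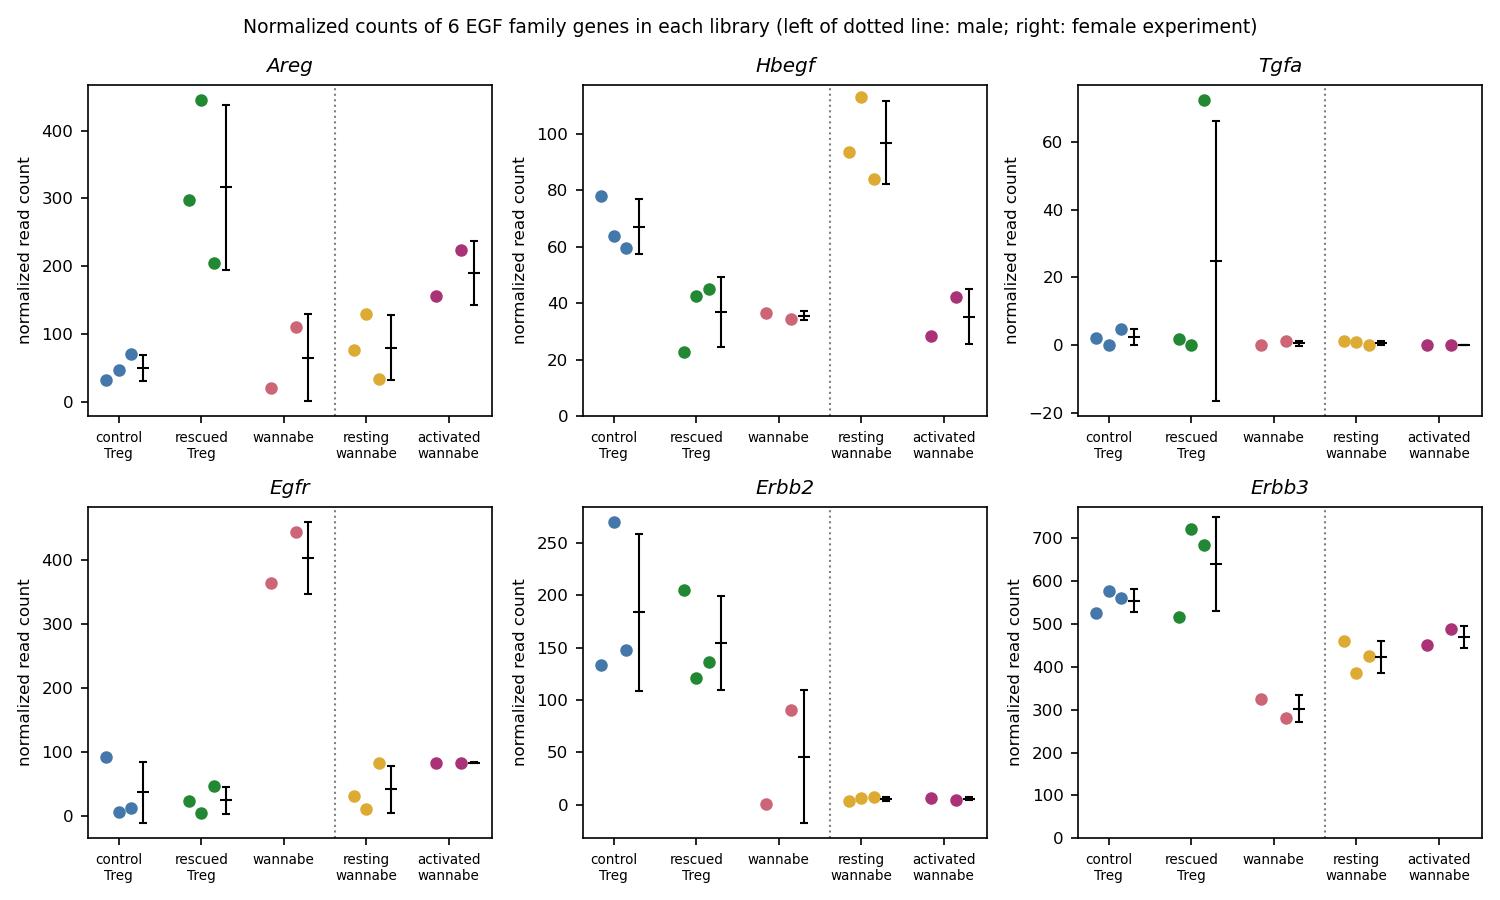
Normalized counts of the EGF family genes in each library (points, y axis, TMM-scaled within each experiment) by group (x axis), with the mean ± SD beside them. The 3 rescued Treg libraries sit at 205 to 446 for *Areg*, above the other male libraries, and the 2 male “wannabe” libraries at 363 and 443 for *Egfr*.

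*Hbegf* was low in all groups and fell with activation of the female “wannabes”. On chromosome 18, it lies from 36504927 to 36515805 on the minus strand. Its normalized counts were 78.1, 63.7 and 59.6 in control Treg cells, 22.7, 42.7 and 45.1 in rescued Treg cells, and 36.6 and 34.5 in male “wannabes”. Every control library was above every other male library, and rescued Treg cells and “wannabes” overlapped. Neither the difference from control to rescued Treg cells (log2 fold change -0.87, standard error 0.77, edgeR adjusted p = 0.669) nor that from “wannabes” to control Treg cells (0.92, standard error 0.87, edgeR adjusted p = 0.516) was called.

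In the females, *Hbegf* had 93.7, 113 and 84.0 normalized counts in resting and 28.4 and 42.1 in activated “wannabes”, without overlap. It fell by 1.46 on the log2 scale (standard error 0.34, edgeR adjusted p = 0.027), that is 2.75-fold. The call was lost without resting replicate 1 (edgeR adjusted p = 0.0532), activated replicate 1 (0.163) or activated replicate 2 (0.0918), with log2 fold changes between -1.78 and -1.21 over all 5 fits. Where 1 activated library was left, its spread was taken from the resting libraries. The summed mast cell and basophil markers were also lower in activated than in resting “wannabes”, without overlap. So were the red cell markers (0.191 to 0.226 against 0.240 to 16.1 CPM). Macrophage and monocyte markers (5.44 to 9.40 against 1.42 to 5.13 CPM), dendritic cell markers (6.76 to 8.05 against 3.30 to 4.39 CPM) and B cell markers (22.6 to 24.8 against 9.78 to 12.1 CPM) were higher, and the part of such cells in the *Hbegf* result was not tested.

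The DTR in control Treg cells is a simian HB-EGF, and in counts per gene its reads and those of *Hbegf* cannot be told apart. Control Treg libraries had 63 to 73 reads on *Hbegf*, or 1.82 to 2.38 CPM. The gene that carries the transgene, *Foxp3*, had 5466 to 8282 normalized counts in the same libraries. Rescued Treg cells and male “wannabes” carry no DTR allele and had 0.692 to 1.37 CPM. Resting “wannabes” carry no DTR allele either and had 2.83 to 3.80 CPM, in libraries of the other experiment, which were normalized separately. Activated “wannabes” came from mice that carry the DTR on the other X chromosome, and they had 0.956 to 1.42 CPM.

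*Tgfa* was close to absent. It had 2, 0 and 5 reads in control Treg cells, 2, 0 and 79 in rescued Treg cells, and 0 and 1 in male “wannabes”. The females had 1, 1 and 0 reads in resting and 0 and 0 in activated “wannabes”. Only rescued replicate 3 stood apart, and *Tgfa* did not pass the filter on low counts in any comparison. A count of 3 is the most that a library at 0 allows, and it covers counting error only.

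Among the receptors, *Egfr* was high in male “wannabes”. It had 92.0, 5.46 and 12.3 normalized counts in control Treg cells, 23.6, 3.88 and 46.0 in rescued Treg cells, and 363 and 443 in “wannabes”. Both “wannabe” libraries lay above all Treg libraries, and the Treg groups overlapped. The means were 36.6 ± 48.1 (SD, n = 3), 24.5 ± 21.1 (SD, n = 3) and 403 ± 56.0 (SD, n = 2).

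From “wannabes” to rescued Treg cells *Egfr* fell by 4.02 on the log2 scale (standard error 1.12, edgeR adjusted p = 0.0357), that is 16.2-fold. The call was lost without rescued replicate 1 (edgeR adjusted p = 0.095), rescued replicate 2 (0.0899), “wannabe” replicate 1 (0.0645) or “wannabe” replicate 2 (0.0944), with log2 fold changes of -4.83 to -3.48 over the 8 fits. From “wannabes” to control Treg cells, which uses the same “wannabe” libraries, the log2 fold change was -3.46 (standard error 1.1, edgeR adjusted p = 0.0539; DESeq2 adjusted p = 0.00655). Without control replicate 1, the control library with the most *Egfr*, it was -5.49 and was called (edgeR adjusted p = 0.0149), and without rescued replicate 2 it was called at -3.43 (0.0438). It was weakest without control replicate 2 (-2.94, edgeR adjusted p = 0.112) and control replicate 3 (-3.04, edgeR adjusted p = 0.144).

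Between control and rescued Treg cells *Egfr* was not detectably different (log2 fold change -0.56, standard error 0.99, edgeR adjusted p = 0.865), and without control replicate 1 the sign turned (1.47). Epithelial cells express *Egfr*, and 5 epithelial markers summed to 10.1 to 12.8 CPM in male “wannabes” against 0.749 to 5.01 CPM in the male Treg libraries. Most of this was *Krt18* and *Cdh1*, and *Krt5* was at 0 in all 8 male libraries. Dendritic cell markers (4.21 to 7.35 against 0.893 to 3.73 CPM) and mast cell and basophil markers (20.3 to 27.0 against 6.34 to 16.5 CPM) were also higher in “wannabes” without overlap. Macrophage and monocyte markers were at 3.32 to 6.68 CPM in “wannabes” and 4.58 to 13.4 CPM in the Treg libraries. Stroma and endothelium markers were lower in “wannabes” (187 to 197 CPM) than in control Treg cells (256 to 307 CPM), without overlap. In rescued Treg cells (151 to 202 CPM) they overlapped those of “wannabes”. The part of other cells in the *Egfr* reads was not tested, and in sorted bulk samples fewer expressing cells and less RNA per cell cannot be told apart.

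In the females, *Egfr* had 31.6, 11.2 and 81.9 normalized counts in resting and 82.3 and 83.2 in activated “wannabes”. The activated libraries lay just above the highest resting library. The difference was not called (log2 fold change 0.99, standard error 0.70, edgeR adjusted p = 0.348). It was 1.95 without resting replicate 3, the highest resting library (edgeR adjusted p = 0.0577), and 0.54 without resting replicate 2, the lowest (edgeR adjusted p = 0.464). Epithelial markers summed to 4.19 to 5.00 CPM in activated and 1.78 to 3.23 CPM in resting “wannabes”, without overlap, and their part in this difference was not tested.

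*Erbb2* had more reads in the male Treg libraries than in male “wannabes”, but the difference was not called. It had 134, 270.3 and 148 normalized counts in control Treg cells, 205, 122 and 136 in rescued Treg cells, and 0.939 and 90.7 in male “wannabes”. The lowest Treg library lay above both “wannabes”, of which replicate 1 had 1 read and replicate 2 had 84. The Treg groups overlapped (log2 fold change -0.25, standard error 0.90, edgeR adjusted p = 0.941).

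Against “wannabes”, the log2 fold change of *Erbb2* was 2.01 for control (standard error 1.1, edgeR adjusted p = 0.239) and 1.76 for rescued Treg cells (standard error 1.09, edgeR adjusted p = 0.32). Without “wannabe” replicate 2 they were 7.40 and 7.14 and were called (edgeR adjusted p = 0.00363 and 0.00343), a setting in which “wannabes” are the single library with 1 read. Without “wannabe” replicate 1 they were 1.02 and 0.77 (edgeR adjusted p = 0.377 and 0.524). Female libraries had 3 to 7 reads each, and *Erbb2* was not tested there. *Erbb2* lies on chromosome 11 from 98412470 to 98437716 on the plus strand, and its last 9 bases are also exonic in *Mien1*, on the opposite strand. *Mien1* had 1557 to 1909 reads in the females and 2091 to 3067 in the males.

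*Erbb3* was the receptor with the most reads per length in each group. It had 524, 577 and 560 normalized counts in control Treg cells, 515, 720.0 and 684 in rescued Treg cells, and 325 and 280 in male “wannabes”. Both “wannabes” lay below all Treg libraries, and the Treg groups overlapped. It lies on chromosome 10 from 128567523 to 128589652 on the minus strand.

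*Erbb3* rose by 1.08 on the log2 scale from “wannabes” to rescued Treg cells (standard error 0.30, edgeR adjusted p = 0.0328), that is 2.12-fold. This call was kept in 1 of 8 fits that left out a male library, the one without rescued replicate 1. Without control replicates 1, 2 and 3 the edgeR adjusted p was 0.0508, 0.0514 and 0.0527, without rescued replicates 2 and 3 it was 0.0902 and 0.079, and without “wannabe” replicates 1 and 2 it was 0.0667 and 0.146. From “wannabes” to control Treg cells the log2 fold change was 0.88 (standard error 0.29, edgeR adjusted p = 0.0665; DESeq2 adjusted p = 0.029). Control and rescued Treg cells differed by 0.21 (standard error 0.26, edgeR adjusted p = 0.79).

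In the females, *Erbb3* had 460, 385 and 425 normalized counts in resting and 450 and 488 in activated “wannabes”, which overlapped. The log2 fold change was 0.14 (standard error 0.14, edgeR adjusted p = 0.502).

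Counts of calls were read against all genes. From control to rescued Treg cells 0 of 5 tested EGF family genes were called in edgeR, where 2.30% of 14925 genes were (1.43% higher and 0.864% lower), while 1 had an unadjusted p under 0.05 and DESeq2 called 1. Groups did not overlap for 2 of 5, against 24.2% of all genes. Between “wannabes” and control Treg cells 0 of 5 were called in edgeR against 16.2% of genes (9.92% higher and 6.27% lower), while 2 had an unadjusted p under 0.05 and DESeq2 called 2. Groups did not overlap for 4 of 5, against 46.1%.

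From “wannabes” to rescued Treg cells 2 of 5 were called, against 14.1% of genes (10.0% higher and 4.06% lower), and 4 of 5 did not overlap, against 42.7%. From resting to activated “wannabes” 1 of 4 was called, against 22.5% of 13166 genes (11.3% higher and 11.2% lower), and 3 of 4 did not overlap, against 56.6%. For the difference between the changes of the 2 experiments 0 of 5 were called in edgeR against 1.53% of 15201 genes (0.803% higher and 0.730% lower), with 0 at an unadjusted p under 0.05 and 0 in DESeq2.

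**Figure D2:**
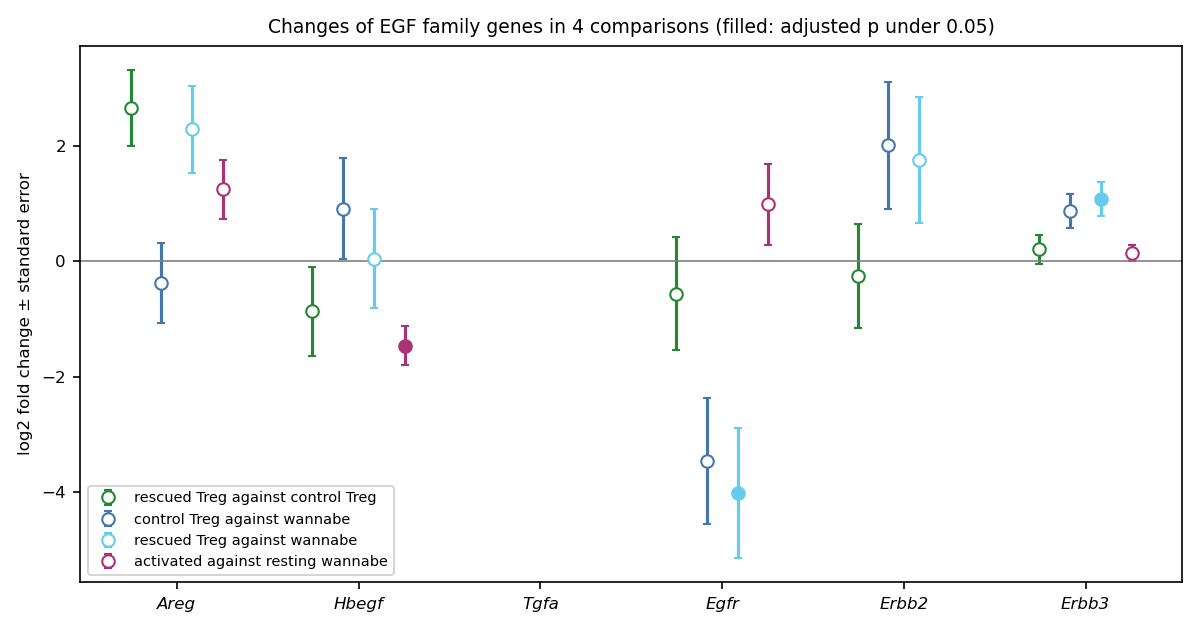
Log2 fold change ± standard error from edgeR (y axis) of each EGF family gene (x axis), colored by comparison, with filled points for adjusted p under 0.05; *Tgfa*, and *Erbb2* in the females, were not tested. *Egfr* and *Erbb3* were called between rescued Treg cells and “wannabes” and *Hbegf* between activated and resting “wannabes”.

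Per kilobase of annotated exon, *Areg* led the 3 ligands and *Erbb3* the 3 receptors in each group. Of the reads per kilobase on the 3 ligands, *Areg* took 72.6% ± 10.1 in control Treg cells, 94.9% ± 5.01 in rescued Treg cells (SD, n = 3 each), and 80.4% ± 17.2 in male “wannabes” (SD, n = 2). It took 73.1% ± 10.7 in resting (SD, n = 3) and 95.6% ± 0.101 in activated “wannabes” (SD, n = 2). *Egfr* took 37.6% ± 0.541 of the reads per kilobase on the 3 receptors in male “wannabes” (SD, n = 2), and in the other groups its mean share lay between 1.57% and 8.47%. *Erbb3* took between 53.9% and 93.9% on average. In RPKM (CPM per kilobase of exon), *Erbb3* averaged 1.53 to 3.24 and *Areg* 1.25 to 7.93.

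**Figure D3:**
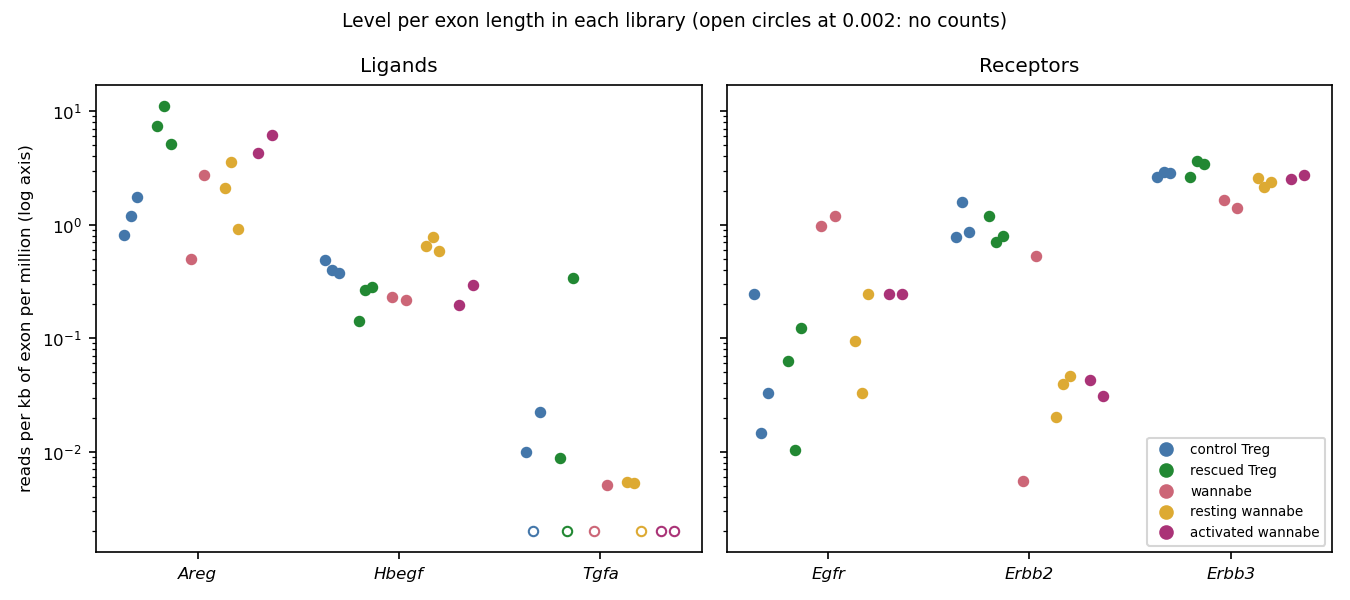
Level of each EGF family gene (x axis) in each library (points, colored by group) in RPKM over the union of exons on a log axis, with libraries without a read as open circles at 0.002; the experiments were normalized separately. *Areg* lies at 5.15 to 11.2 RPKM in rescued Treg cells, and *Egfr* at 0.978 and 1.19 in male “wannabes” against 0.0104 to 0.248 elsewhere.

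Of the other genes of the family, 0 were called by edgeR in any comparison, and 0 to 2 had an unadjusted p under 0.05. In other settings, DESeq2 included, at most 1 was called in a comparison. The list holds the ligand genes *Egf*, *Btc*, *Ereg*, *Epgn* and *Nrg1* to *Nrg4* and the receptor gene *Erbb4*, of which 7 of 9 were tested in the males and 5 of 9 in the females. Most were low, and *Ereg*, next to *Areg*, had no read in any male library. *Btc*, another neighbor, had 4 to 34 reads in the male Treg libraries and 0 in both male “wannabes”. *Nrg4*, a neuregulin that binds ERBB4, was the most abundant per length, at 9.58 ± 1.18 RPKM in control and 10.1 ± 0.974 RPKM in rescued Treg cells (SD, n = 3 each) against 10.6 ± 1.24 RPKM in male “wannabes” (SD, n = 2). It overlaps *Fbxo22*, on the opposite strand, with 368 bases exonic in both, and whether counting used strand is not given in the sources used here.

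Counts for this and the next lists are read against the shares of all genes called, which were 2.30% for rescued against control Treg cells, 16.2% for control Treg cells against “wannabes”, 14.1% for rescued Treg cells against “wannabes”, 22.5% for activated against resting “wannabes” and 1.53% for the difference between the changes of the experiments. Marker lists of other cells that differed without overlap are given beside *Areg*, *Hbegf* and *Egfr*. They differed between the same libraries as these counts, and their part in the counts was not tested. The gene lists were chosen with earlier results of these data known, so that these counts are no independent test of the lists. Of the genes that process the ligands, *Adam8*, a membrane metalloprotease, rose by 2.84 on the log2 scale from control to rescued Treg cells (edgeR adjusted p = 0.000393), the only 1 of 13 tested to be called (list median 0.03, all genes -0.03). In control Treg cells against “wannabes” 4 of 13 fell and 0 rose (list median -0.41, all genes 0.09), led by *Adam8* (-2.85, edgeR adjusted p = 0.00016), *Rhbdf2* (-1.76, 0.00204), whose product carries ADAM17 to the surface, and *Furin* (-1.74, 0.00243), a protease that matures ADAM17.

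From “wannabes” to rescued Treg cells 4 of 13 fell and 1 rose (list median -0.31, all genes 0.00), led by *Adam15* (1.63, edgeR adjusted p = 0.00606), *Rhbdf2* (-1.52, 0.00359) and *Furin* (-1.42, 0.006). From resting to activated “wannabes” 2 of 12 fell, *Adam12* (-3.65, edgeR adjusted p = 0.00063) and *Cd9* (-0.78, 0.00986), and *Rhbdf2* rose (0.82, 0.0276); 3 of 12 called is near the 22.5% of all genes. Without activated replicate 1 or 2, 1 fell and 0 rose, and the *Rhbdf2* call was kept in 5 of 10 other settings. *Adam8* also differed between the changes of the experiments (2.46, edgeR adjusted p = 0.0273).

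Of the genes listed here as attenuators of receptor and MAPK signaling, more rose than fell from male “wannabes” to Treg cells. In control Treg cells 8 of 19 rose and 1 fell (list median 1.12, all genes 0.09), with *Dusp4*, a MAPK phosphatase, at 2.50 (edgeR adjusted p = 0.000864), *Spred1*, an inhibitor of RAS signaling, at 2.29 (0.0289) and *Socs4*, a suppressor of EGFR signaling, at 1.88 (0.00557). In rescued Treg cells 6 rose and 1 fell (list median 0.64, all genes 0.00), with *Dusp4* at 2.46 (edgeR adjusted p = 0.000558), *Socs4* at 1.87 (0.00537) and *Errfi1*, a direct inhibitor of EGFR, at 1.63 (0.0156). The gene that fell was *Dusp6*, a phosphatase of ERK induced by ERK activity, in both comparisons, which share the “wannabe” libraries (-1.52 and -0.74, edgeR adjusted p = 0.00146 and 0.0448). The latter call was kept in 7 of 14 other settings.

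From control to rescued Treg cells only *Lrig1*, which promotes the breakdown of ERBB receptors, was called of 19 (-1.19, edgeR adjusted p = 0.0229; kept in 9 of 14 other settings). From resting to activated “wannabes” 3 of 17 fell and 0 rose, *Spry1* (-0.92, edgeR adjusted p = 0.0454), *Socs4* (-0.70, 0.017) and *Dusp6* (-0.47, 0.0482). These 3 calls were kept in 5, 8 and 3 of 10 other settings, in which 0 to 4 genes of the list fell and 0 to 4 rose, and 3 of 17 is not above the 22.5% of all genes. Without resting replicate 1, 4 rose and 1 fell, without resting replicate 3, 1 rose and 1 fell, and without either activated library 0 were called by edgeR. *Dusp6* differed between the changes of the experiments (1.27, edgeR adjusted p = 0.0286).

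The relay from receptors to MAPK was tested in all 17 genes listed. From control to rescued Treg cells *Map2k2*, a kinase that activates ERK, rose (1.15, edgeR adjusted p = 0.0385), and the other 16 were not called; this call was kept in 8 of 14 other settings. From “wannabes” to control Treg cells 3 rose and 2 fell (list median 0.49, all genes 0.09), with *Map2k1* at 1.51 (edgeR adjusted p = 0.000789), *Map2k2* at 1.49 (0.00633) and *Mapk3*, which encodes ERK1, at -1.15 (0.00546). From “wannabes” to rescued Treg cells 4 rose and 2 fell (list median 0.74, all genes 0.00), with *Map2k2* at 2.64 (edgeR adjusted p = 0.000395), *Map2k1* at 1.5 (0.000483) and *Grb2*, an adaptor of active receptors, at 1.01 (0.0435). The *Grb2* call was kept in 6 of 14 other settings. Of the genes that fell, *Mapk3* was called in 14 of 14 other settings for control and 12 of 14 for rescued Treg cells. The adaptor gene *Shc1* was called in 11 and 9 of 14. The number that fell changed with single libraries left out. For rescued Treg cells 0 fell without rescued replicate 2 or “wannabe” replicate 2, and 1 fell without rescued replicate 3. For control Treg cells 1 fell without control replicate 2, control replicate 3 or “wannabe” replicate 2. Over the other settings 2 to 5 rose in control and 3 to 7 in rescued Treg cells. From resting to activated “wannabes” the adaptor gene *Gab2* was called (3.01, edgeR adjusted p = 0.00352). That call was kept in 8 of 9 other settings that tested it. Over all other settings 0 to 6 genes of the list rose, with 6 without resting replicate 1 and 0 without activated replicate 1, and 1 of 17 lies below the 22.5% of all genes.

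Of 11 alarmin receptors and factors known to go with amphiregulin in tissue Treg cells, several rose from control to rescued Treg cells. Here 5 rose and 0 fell (list median 0.97, all genes -0.03), led by the transcription factors *Nfil3* (3.05, edgeR adjusted p = 0.011) and *Id2* (1.46, 0.0042) and the inhibitory receptor *Klrg1* (1.27, 0.0102). From “wannabes” to control Treg cells 1 rose and 5 fell (list median -0.66, all genes 0.09), with *Id2* at -2.99 (edgeR adjusted p = 6.44e-05), *Klrg1* at 1.55 (0.00191) and the IL-33 receptor gene *Il1rl1* at -0.86 (0.00694). The number that fell was 2 without control replicate 2, and 3 without control replicate 1, rescued replicate 2 or “wannabe” replicate 2. From “wannabes” to rescued Treg cells 1 rose and 2 fell, *Klrg1* (2.82, edgeR adjusted p = 0.000233), *Id2* (-1.53, 0.000704) and *Irf4* (-0.99, 0.00565).

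From resting to activated “wannabes” 6 of these 11 rose and 2 fell (list median 0.49, all genes -0.01). The largest were *Pparg*, a nuclear receptor of tissue Treg cells (4.46, edgeR adjusted p = 0.00427), *Il1rl1* (4.29, 0.00571) and *Klrg1* (3.53, 0.0305). Resting libraries had only 2.07 to 9.16 normalized counts of *Pparg*, 21.0 to 178 of *Il1rl1* and 0 to 15.3 of *Klrg1*. The calls of *Pparg* and *Klrg1* were kept in 8 and 6 of 9 other settings that tested them. In activated “wannabes” the markers of macrophages and monocytes, dendritic cells and B cells were higher and those of mast cells and basophils lower, without overlap, and their part in this list was not tested. Of the 11 genes, 4 differed between the changes of the experiments, against 1.53% of all genes, and *Pparg* (-4.56, edgeR adjusted p = 0.00628), *Nfil3* (3.55, 0.0227) and *Il1rl1* (-3.03, 0.0268) did so by the most. Over the other settings, 2 to 6 of the 11 rose and 0 to 4 fell in activated “wannabes”, and 3 to 6 rose in rescued against control Treg cells. In activated “wannabes”, 2 rose and 0 fell without activated replicate 1, 3 rose and 0 fell without activated replicate 2, and 3 rose and 2 fell without resting replicate 1. In rescued against control Treg cells, 3 rose without control replicate 2.

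**Figure D4:**
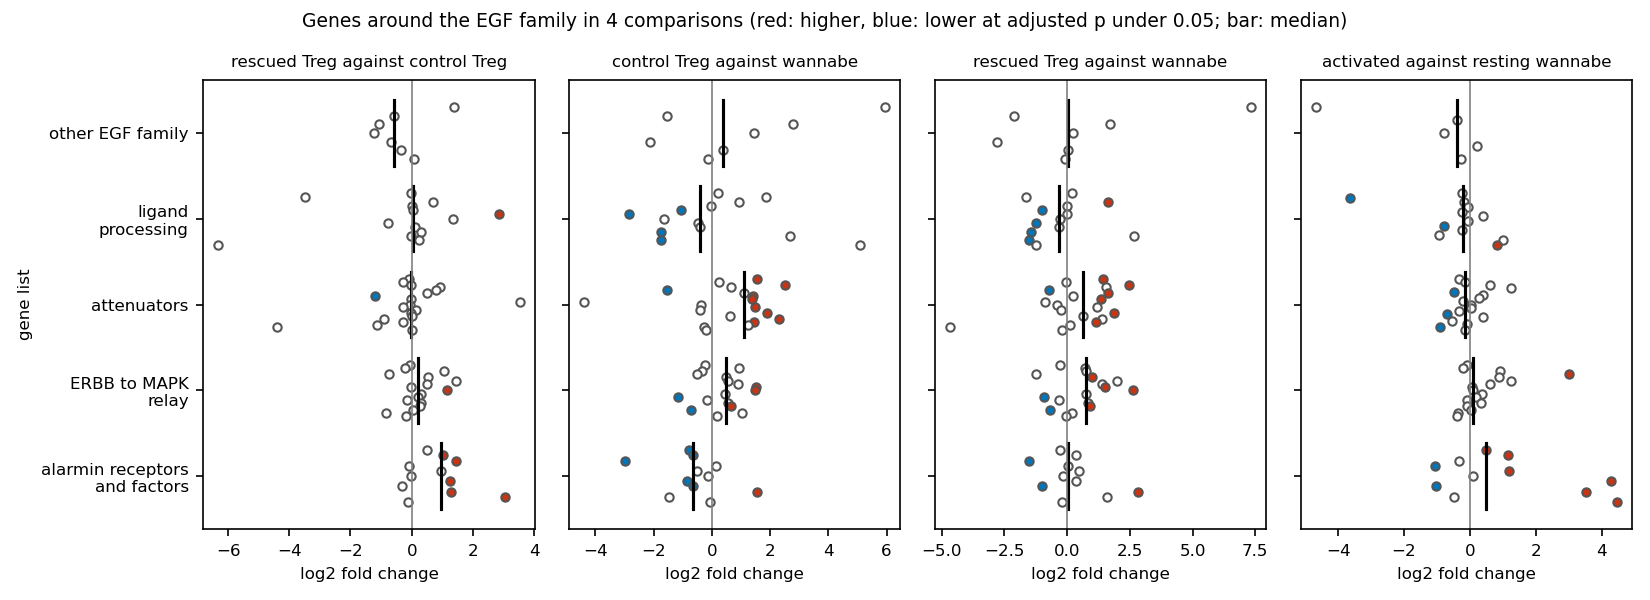
Log2 fold changes from edgeR (x axis) of the genes of each list (y axis) in 4 comparisons, with genes that rose in red, genes that fell in blue and the list median as a bar. The medians of the attenuators lie at 1.12 and 0.64 for control and rescued Treg cells against “wannabes”, and that of the alarmin receptors and factors known to go with amphiregulin at 0.97 for rescued against control Treg cells.

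The genes whose pattern was most like that of *Areg* were found over 13 libraries, by the root mean square difference of log2 CPM centered within each experiment, among 11867 genes. They were *Tspan17* (0.63), *Abcb10* (0.67), *Uap1l1* (0.68), *Hist2h3c2* (0.69) and *Ttc39c* (0.70), against a median of 1.33 over all genes. *Hist2h3c2* belongs to a family of near-identical histone genes, whose reads could be divided among copies, and its values are uncertain. *Ttc39c* had 2161 to 3635 normalized counts in rescued and 553 to 775 in control Treg cells. For *Egfr* the closest were *Fcgrt* (0.97), *Maged1* (1.19), *Sema4a* (1.19), *Havcr2* (1.22) and *Fam213a* (1.27), against a median of 1.92. *Sema4a* had 9340 and 15827 normalized counts in male “wannabes” and 1887 to 2999 in the male Treg libraries.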

How the data were processed

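Bulk RNA-seq counts of 13 libraries were used. The authors amplified RNA with SMART-Seq v4, sequenced read pairs on a HiSeq 4000, aligned them with STAR 2.7.3a to GRCm38, used GATK for realignment and R for counting by gene; the deposited values are raw counts, and the submitters' notes also name DESeq2 1.28.1. The annotation and strand setting of the counting are not given in the sources used here. Groups and replicate numbers came from the labels. Of 24421 entries per table, 4 without a gene name (0.00579% and 0.00638% of counts) were left out.

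The EGF family genes and the gene lists were chosen with earlier results of these data known. The male libraries were fitted together and the female ones on their own in R 4.3.3 with edgeR 4.0.16 (TMM, filterByExpr on groups, quasi-likelihood test, Benjamini-Hochberg adjustment over all genes tested, adjusted p under 0.05), and the difference of changes over all 13. For log2 CPM the prior count was 2. Named were the 6 chosen genes, up to 3 called genes per list and comparison with the largest change, and the 5 most like *Areg* and *Egfr*, among genes with a mean normalized count over 20. *Foxp3*, *Thy1* and *Mien1* served as checks. RPKM used the union of exons in GENCODE M21; promoters came from RefSeq. Settings tried instead were DESeq2 1.42.0, its size factors in edgeR, only genes with a mean normalized count over 100, no filter, a replicate block, only the groups compared, each library left out in turn, and the longest transcript as the length. Tests were checked on simulated data with 200 changed genes. Replicates of a group all differed by more than counting noise.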

Additional observations from a re-analysis of the deposited data

Results flagged for a closer look

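The changes from control to rescued Treg cells and from resting to activated “wannabes” differed for 6 genes of the lists, by the contrast of the changes in edgeR at an adjusted p under 0.05. They were 1 of 13 ligand processing genes tested, 1 of 19 attenuators, 0 of 17 relay genes, 4 of 11 alarmin receptors and factors and 0 of 7 other family genes, where 1.53% of 15201 genes were called. The first change minus the second was 2.46 on the log2 scale for *Adam8*, 1.27 for *Dusp6*, 1.80 for *Id2*, 3.55 for *Nfil3*, -3.03 for *Il1rl1* and -4.56 for *Pparg*. *Pparg* was called in 19 of 19 other settings, and the others in 12 to 17. The experiments also differ in sex, age and treatment, whose part cannot be told apart from that of the groups. Of the 5 EGF family genes tested, 0 were called by edgeR for this difference, 0 had an unadjusted p under 0.05 and 0 were called by DESeq2.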

How the results depend on the processing

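Of 337 fold changes recomputed, 288 kept their direction and their side of the threshold. *Tgfa*, and *Erbb2* in the females, had values only where a setting let them pass the filter. DESeq2's size factors moved the median of all genes by at most 0.04 on the log2 scale. From control to rescued Treg cells 343 genes were called, but 1096 with DESeq2, 612 with no filter, 580 with only the groups compared and 114 to 598 with a library left out. For the difference of changes 233 were called, but 770 with DESeq2, 437 with only the groups compared and 44 to 430 with a library left out. Leaving out a library gave 1549 to 2423 calls between control Treg cells and “wannabes” (2416 with all), 1570 to 1959 between rescued Treg cells and “wannabes” (2105) and 751 to 3215 between activated and resting “wannabes” (2958). Of the EGF family genes, 1 rather than 0 was called from control to rescued Treg cells with DESeq2, no filter, a mean count over 100 or only the groups compared (0 to 1 with a library left out). Between control Treg cells and “wannabes” 2 were called with DESeq2 and 1 with no filter, a mean count over 100, the replicate block or only the groups compared (0 to 1). Between rescued Treg cells and “wannabes” 3 were called with DESeq2 and 1 with no filter or only the groups compared (0 to 2). Between activated and resting “wannabes” 0 were called with a mean count over 100 or the replicate block (0 to 2). The cause was not tested. Replicate numbers did not pair the libraries (correlations of deviations from -0.03 to 0.08), and the block turned *Erbb2* from control to rescued Treg cells to 0.027 and *Hbegf* between rescued Treg cells and “wannabes” to -0.013. Under the block *Areg* (edgeR adjusted p = 0.0475) and not *Erbb3* (0.0719) was called beside *Egfr* between rescued Treg cells and “wannabes”. Of 74 calls of list genes over all comparisons, 37 were kept in every setting and 0 turned sign in any. With a library left out, *Egfr* ranged from -1.37 to 1.47 and *Erbb2* from -0.51 to 0.13 from control to rescued Treg cells, *Areg* from -1.14 to 1.28 between control Treg cells and “wannabes”, *Hbegf* from -0.12 to 0.30 between rescued Treg cells and “wannabes”, and *Egfr* from -2.49 to 0.50 and *Erbb2* from -0.55 to 0.13 in the difference of changes; *Hbegf* between rescued Treg cells and “wannabes” was -0.018 and -0.039 without rescued replicate 2 and “wannabe” replicate 2. Most values of *Tgfa*, *Egfr* and *Hbegf* rest on under 100 reads a library, which limits what could be detected.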
